A study of Mus musculus with 19 samples.

Results

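The genes described here encode the proteins of the mitochondrial ribosome, taken as every gene on the array whose RefSeq transcript carries a symbol that begins with Mrpl or Mrps and a digit. There were 78 such genes among 38391 features. They were read by 100 probes, with 1 probe for each of 56 genes and 2 for each of 22, and the brighter probe stood for a gene that had 2. By symbol, 49 were Mrpl genes and 29 were Mrps genes. By the place of their products, 51 belong to the large subunit and 26 to the small subunit, because the products of Mrps30 and Mrps18a sit in the large one. Mrps36, also called Kgd4, belongs to neither, since its product is a subunit of the 2-oxoglutarate dehydrogenase complex of the citric acid cycle. The genes lie on 17 chromosomes.

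The study profiled 7 sorted blood cell populations on 19 single-colour arrays. All of them came from bone marrow of C57BL/6 mice, 8 to 12 weeks old, and no label names a treatment. LSK cells lack lineage markers and carry Kit and Sca1; they hold stem and multipotent cells (3 arrays). Common myeloid progenitors (CMP, 3 arrays) carried CD34 at a high and CD16/32 at a low level, megakaryocyte-erythroid progenitors (MEP, 3 arrays) had low levels of both, and granulocyte-macrophage progenitors (GMP, 2 arrays) high levels of both. Ter119-positive cells were split into large cells with high CD44, called early erythroblasts (2 arrays), and small cells with intermediate CD44, called late erythroblasts (3 arrays). Granulocytes were taken by Gr1 alone (3 arrays). Whether replicate arrays came from separate mice is not given, so p-values describe the spread among these arrays, part of which may be technical.

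The mitochondrial ribosome translates the few proteins that mitochondrial DNA encodes, all of them subunits of the respiratory chain or ATP synthase. Its RNAs are made inside the organelle, whereas its proteins come from nuclear genes and are imported. Of the 78 genes, 48 belong to families shared with the bacterial ribosome and 29 encode proteins added in mitochondria. In red cell formation mitochondria first serve heme synthesis and are then removed, and mature granulocytes rely mainly on glycolysis.

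Values are the array's processed signal on the log2 scale minus that array's 75th percentile, so 0 is the signal below which 75% of the array's probes lie. Levels are compared only within a gene, since probes differ in brightness. A probe counted as detected on an array where the scanner software found it well above background. By that measure 73 of the 78 genes were detected on all 19 arrays. Mrpl19, Mrpl35, Mrps27 and Mrps5 missed 1 or 2 late erythroblast arrays, and Mrpl21 was well above background on 0 arrays and was not tested. Differences were tested with limma over all features, with Benjamini-Hochberg adjustment at 0.05, and the 77 other genes entered every comparison of 2 cell types.

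Marker genes were set against the labels. Summed on a linear scale, in multiples of each array's 75th percentile, the 12 erythroid markers came to 15481 to 20655 in early and 23787 to 27322 in late erythroblasts, against 121 to 183 in MEP. They did not set MEP apart from CMP: the sum was 121 to 183 in MEP and 129 to 183 in CMP, and 0 of 12 erythroid markers were higher and 4 lower in MEP (median difference -0.47). The 13 granulocytic markers came to 7669 to 8571 in granulocytes, against 3609.8 to 3985 in GMP. Of these 13, 8 rose in granulocytes over GMP and 3 fell. Markers of other cells were also seen: granulocytic markers came to 2780.1 to 3127 in late and 638 to 1922 in early erythroblasts, against 425 to 594 in MEP. In granulocytes, erythroid markers came to 586 to 630.0, against 15.7 to 21.1 in GMP, macrophage markers to 75.8 to 77.8, against 9.20 to 9.37, and B cell markers to 55.7 to 57.3, against 17.7 to 20.0. T and NK cell markers came to 96.2 to 101 in granulocytes, against 134 to 196 in GMP. Gene by gene that list mostly went the other way. Of its 10 tested genes, 8 rose in granulocytes over GMP and 1 fell, with a median difference of 2.54. The gene that fell was Nkg7, the brightest of the list in GMP (mean 7.25, against 5.92 in granulocytes). The 13 stem cell markers came to 211 to 252 in CMP, against 462 to 464 in LSK. Macrophage markers came to 8.03 to 14.3 in late and 6.37 to 6.48 in early erythroblasts, against 0.961 to 1.09 in MEP, and 7 of 11 were detected on every late and 7 on every early erythroblast array. The macrophage genes Mertk and Cd163 were detected on 0 arrays outside granulocytes. The part of such cells in the differences below was not tested. The 5 erythroblast arrays were dim, with 75th percentiles of 50.1 to 81.3 intensity units, against 266 to 607 on the others. In bulk RNA, fewer cells that express a gene and less of its RNA in each cell cannot be told apart.

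All 77 tested genes varied over the 7 cell types (limma's moderated F, largest adjusted p = 0.000507), as did 95.6% of all features tested. Most followed 1 profile, high in progenitors and low in mature red cells. After each gene was centred, the median over the genes was 0.03 to 0.14 on the LSK arrays, 0.78 to 0.90 on CMP, 0.55 to 0.81 on MEP, -0.54 to -0.44 on early and -1.52 to -1.45 on late erythroblast arrays. On the other branch it was 0.84 to 0.96 on GMP and -0.50 to -0.46 on granulocyte arrays. CMP overlapped MEP and GMP in these values, and early erythroblasts overlapped granulocytes. GMP had the highest mean for 52 genes, CMP for 14, early erythroblasts for 8, MEP for 2 and late erythroblasts for 1, Mrpl32. Late erythroblasts had the lowest mean for 64 genes, LSK for 7, granulocytes for 5 and early erythroblasts for 1, Mrps6. Highest and lowest means were not counted over all features. The counts rest on scaling to the 75th percentile, where GMP lay above CMP for 57 of the 77 genes. It did so for 28 under quantile normalization, 30 with the percentile of detected probes and 0 with spike-in scaling. The difference of Mrpl32 in late over early erythroblasts was -0.46 with spike-in scaling.

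The gap between a gene's highest and lowest cell type mean ran from 0.88 for Mrpl32 to 5.38 for Mrps6, with a median of 2.52. Over the 7 cell type means, the correlation of a gene with the median profile of the others had a median of 0.94 and was above 0.9 for 46 genes. The means share arrays and scaling, so this is a description only. The genes least like that profile were Mrpl53, Mrpl57, Mrpl32, Mrpl20 and Mrps36, with Mrpl53 lowest at -0.12.

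**Figure D1:**
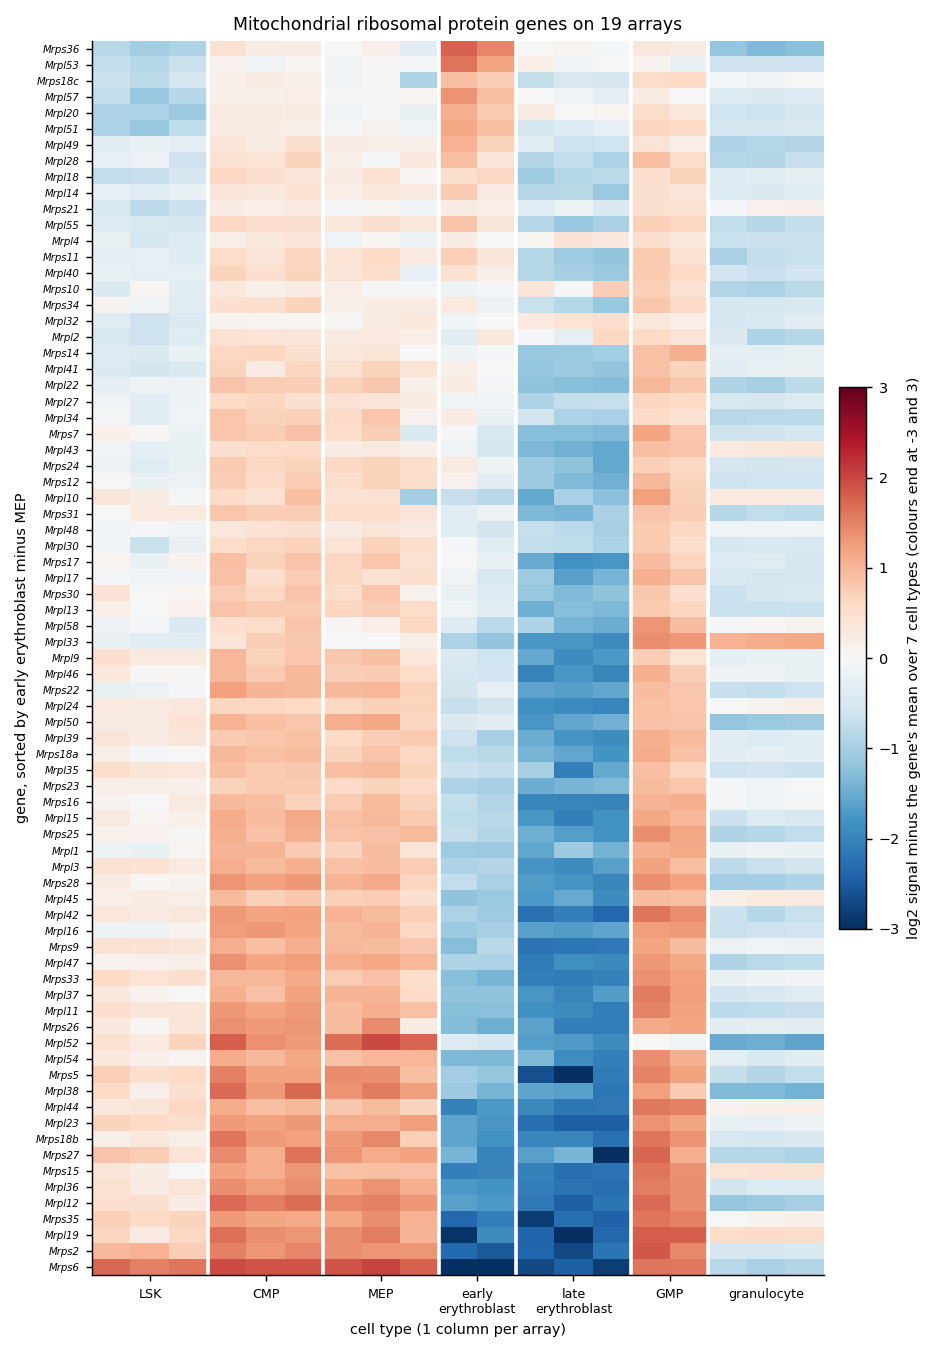
Each row is 1 of the 77 tested genes and each column 1 of the 19 arrays, grouped by cell type; colour gives the centred log2 signal of a gene, and rows are sorted by the difference between early erythroblasts and MEP. Most genes are high in CMP, MEP and GMP and low in late erythroblasts; the 8 genes that rose in early erythroblasts over MEP fell there under spike-in scaling.

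The first comparison set CMP against LSK, the step from the stem and multipotent pool to committed progenitors. In CMP 72 of the 77 genes rose and 0 fell, where 23.0% of all features tested were higher and 13.3% lower (36.3% in either direction). The median difference was 0.83 on the log2 scale, against 0.17 over all features. Markers moved between the same groups: all 12 erythroid markers rose in CMP (median 3.79), 9 of 13 granulocytic markers fell and 2 rose (median -2.18), 7 of 11 T and NK cell markers fell, and 11 of 13 stem cell markers fell. Their part in the genes' rise was not tested. CMP and LSK arrays did not overlap for any of the 72, which rose 1.25-fold to 2.49-fold. Overlap was not counted for other called features, here or below, so such counts do not set these genes apart. In the large subunit 47 of 50 genes rose (median 0.86) and in the small subunit 24 of 26 (median 0.82). Of the genes of bacterial families 43 of 47 rose, and of the mitochondrial additions 28 of 29.

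Mrpl16, a core protein of the large subunit, rose most. It read 4.62, 4.65 and 4.54 in CMP, against 3.21, 3.21 and 3.45 in LSK. The lowest CMP array lay far above the highest LSK array, a rise of 2.49-fold (log2 difference 1.31, SE 0.11, adjusted p = 8.28e-07 by limma). Mrpl12, whose product forms the stalk that recruits translation factors and also binds the mitochondrial RNA polymerase, read 5.94, 5.75 and 5.91 in CMP, against 4.73, 4.71 and 4.47 in LSK. Its groups were as clearly apart, at 2.35-fold (log2 difference 1.23, SE 0.12, adjusted p = 3.12e-06 by limma). Mrps36 rose 2.37-fold and Mrpl20, of the large subunit, 2.36-fold, and Mrps30 rose 1.49-fold. The genes that did not pass were Mrps6 (0.30), Mrpl35 (0.44), Mrpl10 (0.46), Mrps27 (0.70) and Mrpl19 (0.95), and their CMP arrays also lay above their LSK arrays.

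Genes for the rest of mitochondrial translation were examined beside them. All 5 mitoribosome genes without an Mrp symbol rose: Dap3 by 0.74, Ptcd3 by 1.02, Chchd1 by 1.03, Aurkaip1 by 0.55, and Gadd45gip1. Of the genes that charge mitochondrial tRNAs, 14 of 21 rose, led by Yars2 (1.16) and Mars2 (0.99). Translation factors gave 5 of 15 higher, among them the elongation factors Gfm1 (1.17) and Tsfm (1.08). Assembly and rRNA factors gave 12 of 29, with Noa1 at 1.12, and genes of mitochondrial DNA transcription and upkeep 12 of 21, with Fastkd5 at 0.92. Of the import and quality control genes 24 of 25 rose, including the import pore gene Tomm40 (1.44) and the chaperonin Hspd1 (1.26). The nuclear respiratory chain and ATP synthase genes gave 73 of 80 higher and 1 lower (median 0.85), and cytosolic ribosomal protein genes 25 of 79 higher (median 0.29). Mitophagy genes gave 3 higher and 8 lower of 15, with Optn at 2.07 and Map1lc3a at -0.91. Among regulators of mitochondrial genes, 2 of 13 rose and 3 fell, with Ppargc1a at -2.31 and Mycn at -1.85.

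**Figure D2:**
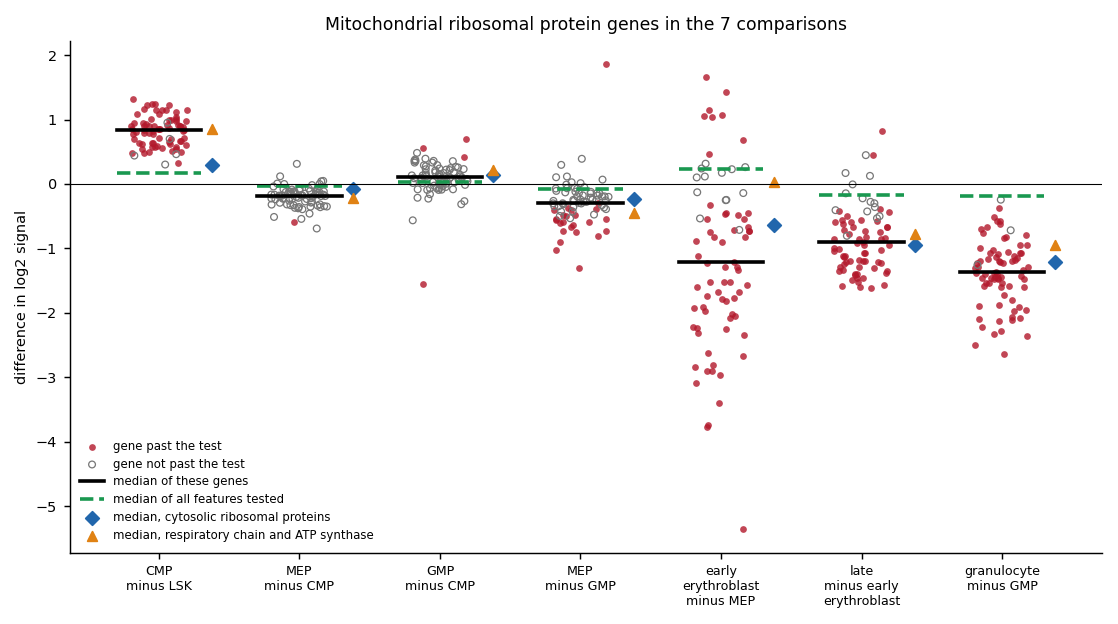
Each point is the difference of 1 gene in log2 signal in the comparison named on the axis; red points passed limma's test, black lines are medians of the 77 genes, dashed green lines medians of all features tested, and blue diamonds and orange triangles medians of the cytosolic ribosomal protein and respiratory lists. The points lie above 0 in CMP over LSK and below 0 in granulocytes over GMP, and spread most in early erythroblasts over MEP, where spike-in scaling put all 77 below 0.

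At the split of CMP into MEP and GMP few of the genes passed the test. In MEP 0 rose over CMP and 1 fell, where 1.72% of all features tested were higher and 2.47% lower (4.19% in either direction), and the median difference was -0.18, against -0.03 over all features. In GMP 3 rose over CMP and 1 fell, where 9.22% of all features tested were higher and 8.31% lower (17.5% in either direction), with a median of 0.10, against 0.04. Between the branches 23 genes were lower and 1 was higher in MEP than in GMP, where 13.2% of all features tested were higher and 18.1% lower (31.3% in either direction). The median there was -0.29, against -0.07 over all features. In MEP over GMP 10 of 12 erythroid markers were higher and 12 of 13 granulocytic markers lower, and their part was not tested. Without GMP replicate 1 the count between the branches was 10 in place of 24, and that in GMP over CMP 2 in place of 4. The call in MEP over CMP was lost without CMP replicate 2, CMP replicate 3 or MEP replicate 2.

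Mrpl33, a large-subunit protein of a bacterial family, fell in MEP and rose in GMP. It read 6.48, 6.48 and 6.65 in MEP and 7.88 and 7.79 in GMP, against 6.87, 7.22 and 7.29 in CMP, and neither group overlapped CMP. The fall in MEP was 1.51-fold (log2 difference -0.59, SE 0.12, adjusted p = 0.0144 by limma). The rise in GMP was 1.63-fold (log2 difference 0.71, SE 0.14, adjusted p = 0.00194 by limma), which spike-in scaling turned to -0.26. Granulocytes read 7.53, 7.59 and 7.64, a difference from GMP of -0.24 with a 95% interval of -0.54 to 0.05 and no call. The gene overlaps a long noncoding gene in the annotation, and which transcript its probe reads was not tested.

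Mrpl52, a mitochondrial addition to the large subunit, moved the other way. It read 4.85 and 4.75 in GMP, against 6.67, 6.23 and 6.14 in CMP. Both GMP arrays lay below every CMP array, a fall of 2.93-fold (log2 difference -1.55, SE 0.16, adjusted p = 7.78e-06 by limma). It read 6.54, 6.84 and 6.60 in MEP, above both GMP arrays, by 3.63-fold (log2 difference 1.86, SE 0.16, adjusted p = 7.08e-07 by limma). Mrpl44, which carries a ribonuclease III-like fold, rose in GMP over CMP by 0.55, and Mrpl51, a mitochondrial addition, by 0.42; spike-in scaling turned these to -0.42 and -0.54. Lower in MEP than in GMP were also Mrpl10 (-1.02), which anchors the stalk, Mrps18c (-0.90) and Mrpl58 (-0.81), a peptidyl-tRNA hydrolase built into the large subunit. The third MEP array stood low for the first of these: Mrpl10 read 2.10, 2.11 and 0.65 in MEP, against 2.90 and 2.39 in GMP. Without MEP replicate 3 the difference of Mrpl10 was -0.54 and did not pass (adjusted p = 0.0846 by limma), and its call was also lost without either GMP array. Its second probe gave -0.68. That array read 3.50 for Mrps18c, below the other two, and without it the difference was -0.60 and still passed. The call of Mrpl58 was lost without GMP replicate 1 (-0.61).

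Few genes of the other lists passed between CMP and its branches. In MEP over CMP, 0 of 29 assembly factors and 0 of 21 synthetase genes rose and 0 of either fell, and of the respiratory genes only Cox5a fell (-0.41), of 80 tested. In GMP over CMP 14 of 80 respiratory genes rose and 2 fell, and 0 cytosolic ribosomal protein genes rose and 0 fell of 79. In MEP over GMP 49 of 79 respiratory genes were lower and 2 higher, as were 11 and 0 of 79 cytosolic ribosomal protein genes. Mycn was lower in GMP than in CMP (-3.86) and higher in MEP than in GMP (5.33).

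**Figure D3:**
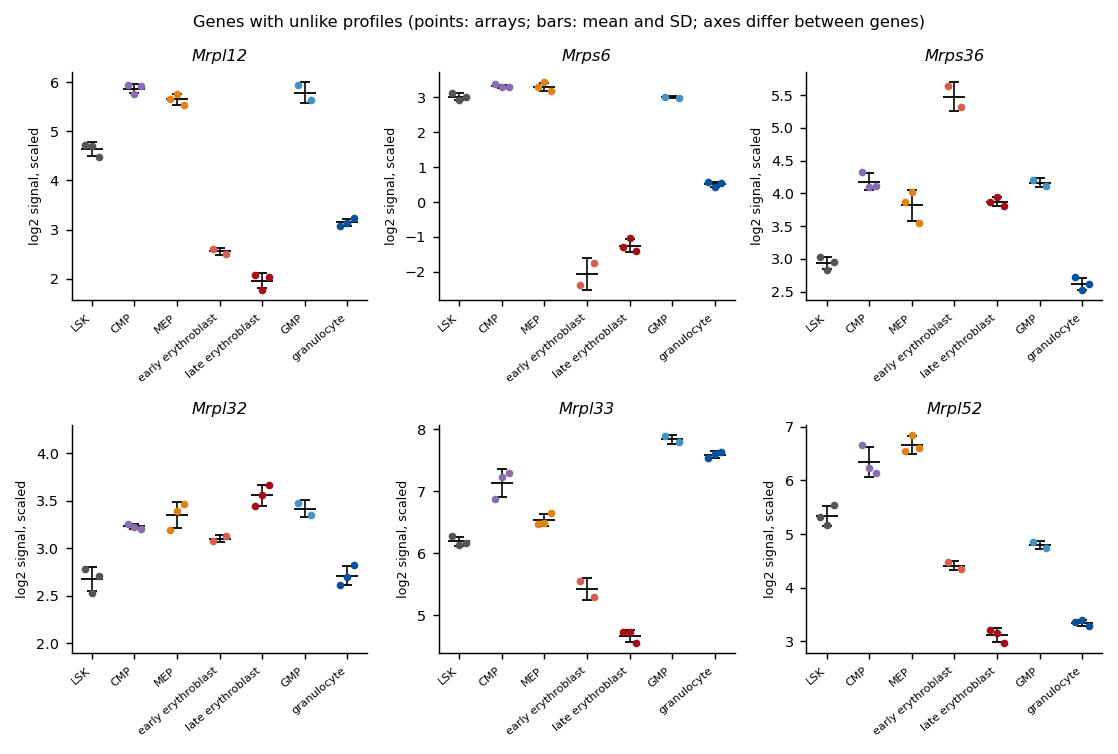
Points are the scaled log2 signals of 6 genes on single arrays and bars the mean and SD of each cell type. Mrpl12 and Mrps6 are low in both mature lineages, Mrps36 is highest in early erythroblasts (below MEP there under spike-in scaling), Mrpl32 has the smallest range, Mrpl33 stays high in granulocytes and Mrpl52 is low already in GMP.

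Early erythroblasts against MEP is the step at which the genes parted. Of the 77 genes, 56 fell and 8 rose, where 43.6% of all features tested were higher and 37.6% lower (81.2% in either direction). The median difference was -1.21, against 0.23 over all features. In the large subunit 36 of 50 genes fell and 6 rose (median -1.01), and in the small subunit 20 of 26 fell and 1 rose (median -1.58). Falls of over 2 on the log2 scale were seen for 20 genes, and their share over all features was not counted. Of the 64 genes that passed, Mrpl34 and Mrpl22 had overlapping groups.

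Mrps6, a small-subunit protein of a bacterial family, fell most. It read -2.37 and -1.74 in early erythroblasts, against 3.29, 3.43 and 3.19 in MEP. The gap between the groups was many times the range within either, a fall of 41.1-fold (log2 difference -5.36, SE 0.17, adjusted p = 1.32e-12 by limma). On these 2 dim arrays the lowest intensities well above background were 9.62 and 11.6, against 75th percentiles of 64.2 and 81.3. Mrps6 read near that floor, so the size of its fall is uncertain. In the annotation Mrps6 overlaps Slc5a3, a myo-inositol transporter gene, and which transcript the probe reads was not tested. Mrps2, of the small subunit, read -1.43 and -1.60 in early erythroblasts, against 2.29, 2.24 and 2.23 in MEP. These groups were also far apart, a fall of 13.6-fold, and its second probe gave -2.63. Mrpl19 fell by 3.75 (SE 0.56) and Mrps35, a mitochondrial addition, by 3.41 (SE 0.16). Mrpl12 read 2.61 and 2.51 in early erythroblasts, against 5.66, 5.75 and 5.54 in MEP, a fall of 8.51-fold (log2 difference -3.09, SE 0.14, adjusted p = 4.21e-11 by limma). Among other genes with a wide range, Mrps15 fell by 2.91 and Mrpl42 by 1.91, and Mrps30 fell by 0.83.

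The genes that rose were Mrps36, Mrpl53, Mrps18c, Mrpl57, Mrpl20, Mrpl51, Mrpl49 and Mrpl28, and under spike-in scaling all 8 fell instead. Mrps36 read 5.63 and 5.32 in early erythroblasts, against 3.87, 4.02 and 3.55 in MEP. The groups did not overlap, and the rise was 3.16-fold (log2 difference 1.66, SE 0.15, adjusted p = 7.98e-08 by limma), with 1.41 on its second probe and -1.86 under spike-in scaling. Mrpl53, a mitochondrial addition, read 5.70 and 5.28 in early erythroblasts, against 4.01, 4.13 and 4.05 in MEP. It rose 2.69-fold (log2 difference 1.43, SE 0.14, adjusted p = 3.31e-07 by limma), with -2.09 under spike-in scaling and no overlap. Mrpl57 rose by 1.07, Mrpl20 by 1.05, Mrpl51 by 1.04, Mrpl49 by 0.68 and Mrpl28 by 0.47; under spike-in scaling they read -2.45, -2.47, -2.48, -2.84 and -3.05. After normexp background correction Mrpl49 read 0.08 and Mrpl28 -0.11, and neither passed. With normexp, and without the filter on dim probes, only Mrps36 and Mrpl53 of the 8 stayed above the median of all features. All 8 fell in late over early erythroblasts and in granulocytes over GMP.

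The 3 Mrps18 genes, related to 1 bacterial small-subunit protein, parted at this step. The products of Mrps18c and Mrps18b lie in the small subunit and that of Mrps18a in the large one. Mrps18c read 5.33 and 5.18 in early erythroblasts, against 4.36, 4.47 and 3.50 in MEP. It rose without overlap (log2 difference 1.15, SE 0.22, adjusted p = 0.000179 by limma), and spike-in scaling turned this to -2.37. Mrps18b read 2.11 and 1.89 in early erythroblasts, against 4.98, 5.14 and 4.41 in MEP, a fall of 2.85 (SE 0.19), with -1.11 on its second probe. Mrps18a read 2.10 and 2.02 in early erythroblasts, against 3.52, 3.73 and 3.48 in MEP, a fall of 1.51 (SE 0.13). All early erythroblast values of both lay below all MEP values. In CMP over LSK all 3 rose, by 0.83 for Mrps18c, 1.15 for Mrps18b and 0.88 for Mrps18a. In granulocytes over GMP all 3 fell, by 0.63, 1.96 and 1.31 in the same order.

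**Figure D4:**
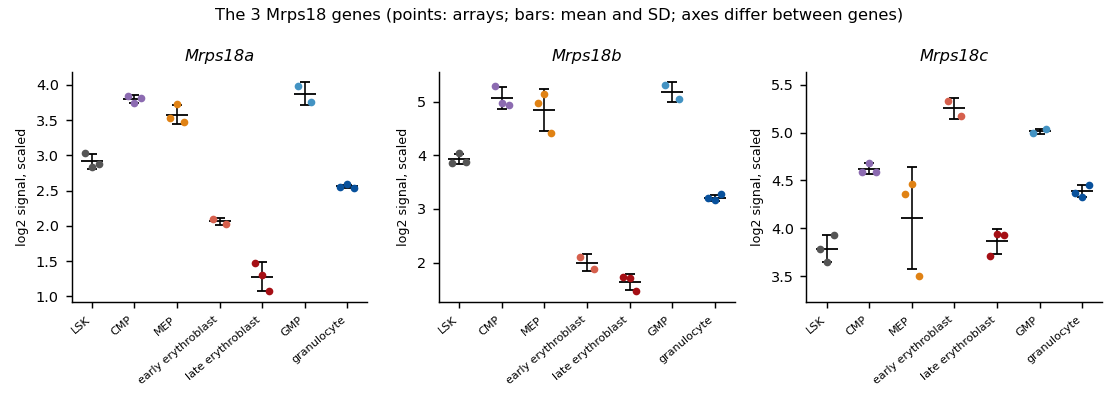
Points are the scaled log2 signals of Mrps18a, Mrps18b and Mrps18c on single arrays, with mean and SD per cell type. Mrps18a and Mrps18b are lower in early erythroblasts than in MEP, while Mrps18c has its highest values in early erythroblasts; under spike-in scaling Mrps18c was lower there than in MEP.

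The promoters of the Mrps18 genes are printed because their profiles differ, that of Mrpl12 as a gene of the common profile, and that of Mrps11 because it shares its start region with Mrpl46. Each runs from 250 bases before to 50 bases after the RefSeq start, build GRCm38.p6. Capitals mark matches on either strand to core motifs of NRF1 (GCGC, any base, TGCGC), of ETS factors (CCGGAAG) and of YY1 (AAGATGGC), which are known regulators of mitochondrial genes.
Mrps18c, chr5:100798509-100798808, plus strand: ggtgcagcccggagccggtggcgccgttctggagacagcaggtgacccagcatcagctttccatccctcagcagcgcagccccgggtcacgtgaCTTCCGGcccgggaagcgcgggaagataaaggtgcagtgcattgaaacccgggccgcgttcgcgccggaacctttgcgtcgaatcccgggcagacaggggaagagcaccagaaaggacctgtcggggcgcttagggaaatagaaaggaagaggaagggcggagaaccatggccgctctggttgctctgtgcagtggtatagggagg
Mrps18b, chr17:35916391-35916690, minus strand: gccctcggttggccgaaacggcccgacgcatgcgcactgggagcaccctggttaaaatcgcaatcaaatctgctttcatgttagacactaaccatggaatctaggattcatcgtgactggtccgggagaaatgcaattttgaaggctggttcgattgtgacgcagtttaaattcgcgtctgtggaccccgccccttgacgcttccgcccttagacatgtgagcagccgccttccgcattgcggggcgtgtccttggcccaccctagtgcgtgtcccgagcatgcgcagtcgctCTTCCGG
Mrps18a, chr17:46110754-46111053, plus strand: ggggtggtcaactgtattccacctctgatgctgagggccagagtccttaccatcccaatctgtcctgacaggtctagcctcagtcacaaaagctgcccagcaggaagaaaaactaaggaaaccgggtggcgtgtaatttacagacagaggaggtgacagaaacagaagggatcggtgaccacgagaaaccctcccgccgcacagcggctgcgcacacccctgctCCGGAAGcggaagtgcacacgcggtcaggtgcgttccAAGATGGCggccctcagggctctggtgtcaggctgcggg
Mrpl12, chr11:120484387-120484686, plus strand: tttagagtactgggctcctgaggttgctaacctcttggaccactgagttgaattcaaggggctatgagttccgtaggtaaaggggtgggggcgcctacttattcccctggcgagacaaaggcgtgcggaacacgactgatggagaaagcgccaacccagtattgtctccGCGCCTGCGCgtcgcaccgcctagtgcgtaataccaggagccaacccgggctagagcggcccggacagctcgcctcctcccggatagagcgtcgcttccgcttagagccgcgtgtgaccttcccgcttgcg
Mrps11, chr7:78782881-78783180, plus strand: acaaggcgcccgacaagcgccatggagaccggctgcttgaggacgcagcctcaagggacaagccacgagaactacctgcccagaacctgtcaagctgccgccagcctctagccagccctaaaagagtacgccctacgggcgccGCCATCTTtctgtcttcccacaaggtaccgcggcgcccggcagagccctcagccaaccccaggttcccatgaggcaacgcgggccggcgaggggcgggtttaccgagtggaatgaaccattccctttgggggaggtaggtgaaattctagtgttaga
Mrps18c and Mrps18b each held 1 ETS match, Mrps18a 1 ETS and 1 YY1 match, Mrpl12 1 NRF1 match and Mrps11 1 YY1 match.

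RefSeq gave 75 promoter sequences for 69 of the 78 genes. ETS matches were present in 34.7% of the 75, NRF1 matches in 17.3% and YY1 matches in 16.0%, against 11.6%, 6.38% and 3.05% of 21263 mouse promoters of the same length. At least 1 of these motifs was present in 57.3% of the 75, against 18.9% of all. The E-box CACGTG was present in 9.33%, against 7.84%, and TATAAA in 6.67%, against 12.6%. The median GC content was 58.7%, against 56.3%. A match describes sequence and not binding.

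Many of the genes start close to a gene on the opposite strand. Of the 69 genes, 25 (36.2%) had such a start within 1000 bases, against 1515 of 17492 protein-coding genes (8.66%). Mrpl46 and Mrps11 start 42 bases apart, and both rose in CMP over LSK, by 0.80 and 0.82. In early erythroblasts Mrpl46 read 1.16 and 1.07, against 2.38, 2.44 and 2.19 in MEP, a fall without overlap (log2 difference -1.23, SE 0.14, adjusted p = 1.38e-06 by limma). Mrps11 read 2.25 and 1.89 in early erythroblasts, against 1.95, 2.13 and 1.79 in MEP. Its groups overlapped, and the difference was 0.12 with a 95% interval of -0.24 to 0.47. Mrpl43 starts 116 bases from Twnk, the mitochondrial DNA helicase gene, and in early erythroblasts Mrpl43 fell by 0.54 and Twnk by 5.66. Twnk was not detected on every array of either erythroblast group, so the size of its fall is uncertain. Mrpl47 starts 308 bases from Ndufb5, a complex I subunit gene, and these read -2.02 and -2.18. Mrps12, whose product lies at the decoding centre, starts 147 bases from the seryl-tRNA synthetase gene Sars2, and these read -0.67 and -0.45. In the annotation 20 of the 78 genes overlap another protein-coding gene, and which transcripts those probes read was not tested.

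Most of the other genes for mitochondrial translation were lower in early erythroblasts than in MEP. Synthetase genes gave 18 of 21 lower and 1 higher, led by Ears2 (-5.36) and Vars2 (-3.90). Translation factors gave 11 of 15 lower and 2 higher, with the elongation factors Tsfm at -3.08 and Tufm at -3.03. Assembly factors gave 20 of 29 lower and 3 higher, with Rcc1l at -5.40, and transcription and upkeep genes 17 of 21 lower and 0 higher, with Tefm at -4.83. The sizes of the largest falls are uncertain on these dim arrays. Only 16 synthetase genes and 16 transcription and upkeep genes were detected on every array of an erythroblast group. Import genes gave 18 lower and 4 higher of 25, with Timm9 at -4.89 and Hspd1 at -4.24. Of the mitoribosome genes without an Mrp symbol, Ptcd3 (-1.77), Chchd1 (-1.66) and Dap3 (-0.33) fell and Aurkaip1 (1.01) rose. Respiratory genes gave 21 higher and 29 lower of 79 (median 0.04), and cytosolic ribosomal protein genes 6 higher and 56 lower of 79 (median -0.63). Spike-in scaling moved the median of all features here from 0.23 to -3.29. Rises in the lists other than the Mrp genes were not counted under it. Mitophagy genes gave 10 higher and 3 lower of 15, with Fbxo7 at 3.13 and Fundc1 at -3.15. Of the regulators 3 rose and 7 fell of 13, with Perm1 at 6.99 and Mycn at -6.97. Granulocytic markers were higher for 7 and lower for 3 of 12, and macrophage markers were higher for 6 and lower for 0 of 7.

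Late erythroblasts against early ones gave further falls. Of the 77 genes 61 fell and 2 rose, where 21.7% of all features tested were higher and 37.2% lower (58.9% in either direction). The median difference was -0.90, against -0.17 over all features, and it was -0.85 in the large and -0.94 in the small subunit. The groups did not overlap for any of the 63. Of the 13 genes that had not passed in early erythroblasts over MEP, 8 fell here. In late erythroblasts the mean of 66 genes lay below that in LSK. Neither of these counts was made over all features.

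Mrpl55, a large-subunit protein of a bacterial family, fell most. It read 3.09, 2.80 and 2.97 in late erythroblasts, against 4.81 and 4.32 in early erythroblasts. All late arrays lay below both early ones, a fall of 3.06-fold (log2 difference -1.61, SE 0.14, adjusted p = 5.46e-07 by limma). Mrps36 read 3.87, 3.94 and 3.81 in late erythroblasts, against 5.63 and 5.32 in early erythroblasts, a fall of 3.04-fold. Its late erythroblast mean differed from that in MEP by 0.06. Mrps17 fell by 1.58 and Mrps11 by 1.57, both of the small subunit.

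Mrps6 and Mrpl32 were the genes that rose, and under spike-in scaling they turned to -0.10 and -0.46. The early erythroblast readings of Mrps6 lay near the floor of dim arrays, so the size of its rise is uncertain. Mrps6 read -1.29, -1.03 and -1.41 in late erythroblasts, against -2.37 and -1.74 in early erythroblasts, still far under its level in MEP (log2 difference 0.81, SE 0.17, adjusted p = 0.000721 by limma). Mrpl32, a large-subunit protein that a mitochondrial protease trims before assembly, read 3.45, 3.56 and 3.66 in late erythroblasts, against 3.07 and 3.13 in early erythroblasts, with no overlap (log2 difference 0.46, SE 0.12, adjusted p = 0.00534 by limma).

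All 5 mitoribosome genes without an Mrp symbol fell as well, from Aurkaip1 (-0.50) to Dap3 (-1.35). Synthetase genes gave 11 of 16 lower, translation factors 8 of 14, assembly factors 11 of 26 with 4 higher, and import genes 16 of 25 with 2 higher, among these Timm10 (2.12). Transcription and upkeep genes gave 11 of 16 lower and 2 higher, among these Polg2 (1.28), a polymerase subunit. Cytosolic ribosomal protein genes gave 79 of 79 lower (median -0.95) and respiratory genes 70 of 79 with 1 higher (median -0.77). Mitophagy genes gave 8 of 15 higher and 1 lower, led by the kinase Ulk1 (2.54). Granulocytic markers were higher for 13 of 13 (median 1.43).

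Granulocytes had less signal than GMP for nearly all of the genes. Of the 77 genes 74 fell and 0 rose, where 27.5% of all features tested were higher and 38.7% lower (66.2% in either direction). The median difference was -1.36, against -0.19 over all features. The groups did not overlap for any of the 74, which fell 1.30-fold to 6.21-fold. All 26 genes of the small subunit and 47 of 50 of the large subunit fell. Mrpl19 (-1.26), Mrpl10 (-0.72) and Mrpl33 (-0.24) did not pass. Of the 72 genes that rose in CMP over LSK, 71 fell here, a count not made over all features. Spike-in scaling left 16 calls, all lower, while the median was -1.16 and all 77 genes lay below 0.

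Mrpl12 fell most. It read 3.08, 3.12 and 3.23 in granulocytes, against 5.93 and 5.63 in GMP. The highest granulocyte array lay far below the lowest GMP array, a fall of 6.21-fold (log2 difference -2.63, SE 0.14, adjusted p = 1.31e-09 by limma). Mrps6 read 0.57, 0.43 and 0.53 in granulocytes, against 3.02 and 2.99 in GMP. That gap was nearly as wide, at 5.63-fold (log2 difference -2.49, SE 0.17, adjusted p = 1.18e-08 by limma). Mrpl38, a mitochondrial addition, fell 5.12-fold and Mrps28, of the small subunit, 5.01-fold. The smallest falls that passed included Mrps21 (-0.38), Mrpl57 (-0.52) and Mrpl53 (-0.57).

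Synthetase genes gave 21 of 21 lower in granulocytes, with Pars2 at -2.48 and Ears2 at -2.44. Translation factors gave 13 of 15 lower, led by Guf1 (-2.20), assembly factors 24 of 29 with 2 higher, led by Rcc1l (-3.40), transcription and upkeep genes 19 of 21, led by Prorp (-2.66), and import genes 23 of 25, led by Timm9 (-2.78). Gadd45gip1 fell by 2.16, Ptcd3 by 1.64, Chchd1 by 1.53 and Dap3 by 1.14, and Aurkaip1 (-0.02) did not pass. Cytosolic ribosomal protein genes gave 78 of 79 lower (median -1.21) and respiratory genes 74 of 80 lower and 1 higher (median -0.95). Of the regulators 4 of 12 fell and 2 rose, with Myc at -3.23. Mitophagy genes gave 8 higher and 5 lower of 15, with Optn at 3.48. Macrophage markers were higher for 10 of 10, erythroid markers for 10 of 12, B cell markers for 8 of 11 and T and NK cell markers for 8 of 10. Of these lists, 1 erythroid and 1 T and NK cell marker were lower.

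The maturation paths were then set against each other, as the late erythroblast minus MEP difference less the granulocyte minus GMP difference. Of 73 genes detected on all arrays of the 4 groups, 49 differed, 40 with a lower and 9 with a higher value in the red cell path, where 41.9% of all features tested were higher and 34.9% lower (76.7% in either direction). The median was -0.63, against 0.22 over all features. With slide as a block 37 passed. Mrps35 differed by -3.71 in late erythroblasts over MEP and -1.47 in granulocytes over GMP (log2 difference -2.24, SE 0.22, adjusted p = 3.71e-07 by limma). Mrpl52 differed by -3.54 in late erythroblasts over MEP and -1.45 in granulocytes over GMP. Mrps6 differed by -4.55 in late erythroblasts over MEP and -2.49 in granulocytes over GMP. For these the fall was larger in the red cell path. Mrpl52 was already lower in GMP than in MEP (MEP over GMP 1.86), so its paths started at unlike levels. Mrps10, of the small subunit, differed by 0.32 in late erythroblasts over MEP and -1.46 in granulocytes over GMP (log2 difference 1.78, SE 0.26, adjusted p = 2.65e-05 by limma). Mrps36 differed by 0.06 in late erythroblasts over MEP and -1.54 in granulocytes over GMP. Mrpl4, of the large subunit, differed by 0.34 in late erythroblasts over MEP and -1.07 in granulocytes over GMP. Spike-in scaling turned these 3 interactions to -2.87, -3.05 and -3.24. The difference between the paths depended on the probe for Mrpl4, whose second probe, detected on all 19 arrays, gave -1.24 in late erythroblasts over MEP and -1.38 in granulocytes over GMP, 0.14 apart. The second probe of Mrps36 gave -0.02 and -1.61 in the same order, 1.60 apart, and Mrps10 had 1 probe. Over the 3 maturation comparisons, 44 genes fell in each, and the share of all features that did so was not counted.

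Slides could be compared where they held both groups. Within single slides the median difference of the genes was 0.77 and 0.78 for CMP over LSK, -1.27 for early erythroblasts over MEP, and -0.86 and -0.90 for late over early erythroblasts. It was -0.09 for MEP over GMP, 0.06 for GMP over CMP and -0.23, -0.01 and -0.32 for MEP over CMP. Every called gene kept its sign on each of these slides. Groups that do not overlap fix that sign in advance. This held for all called genes but Mrpl34 and Mrpl22 in early erythroblasts over MEP, so the count is a description only. Granulocytes and GMP shared no slide, so that comparison has no within-slide value. With slide as a block in the fit, 70 of 77 genes fell there and 0 rose, with a median of -1.35.

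Of the 22 genes with 2 probes, 19 had a second probe detected on all 19 arrays. It gave the same sign as the brighter probe for 19 genes in CMP over LSK, 17 in MEP over CMP, 13 in GMP over CMP, 16 in MEP over GMP, 15 in early erythroblasts over MEP, 17 in late over early erythroblasts and 18 in granulocytes over GMP. The 4 that differed in early erythroblasts over MEP were Mrps25, at -1.68 on the brighter probe and 0.61 on the other, Mrpl41, at -0.45 and 1.41, Mrpl4, at 0.17 and -0.21, and Mrpl40, at 0.10 and -0.11. The pair that differed in late over early erythroblasts was Mrpl4, at 0.17 and -1.03, and Mrpl41, at -1.22 and 0.37. Mrpl41 also differed in granulocytes over GMP, at -1.03 and 0.11. In the other 3 genes the second probe was detected on 17 or 18 arrays. Of these, Mrpl39 read -1.51 on the brighter probe and 0.78 on the other in early erythroblasts over MEP, and Mrps2 read -0.01 and 1.04 in late over early erythroblasts. The transcripts behind these probes were not tested.

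The scaling of the arrays set the level of each comparison as a whole. Scaling to 10 spike-in probes moved the median of all features to 0.98 in CMP over LSK, -0.93 in GMP over CMP, 0.73 in MEP over GMP, -3.29 in early erythroblasts over MEP, -1.08 in late over early erythroblasts and 0.02 in granulocytes over GMP. Relative to that median, these genes stood at 0.66, 0.06, -0.22, -1.44, -0.73 and -1.17 in the same order. The spike-in signal itself spread from 9.52 to 11.0 on the log2 scale over the late erythroblast arrays and from 8.55 to 9.72 over the LSK arrays.

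The share of higher calls among all features moved with the scaling. In CMP over LSK it was 63.3% with the 75th percentile, 51.1% with quantile normalization, 32.3% with the percentile of detected probes and 82.5% with spike-ins, and 72, 50, 53 and 47 of the 77 genes rose and 0 fell. In MEP over GMP the shares were 42.3%, 55.1%, 65.9% and 81.9%, with 23, 6, 8 and 0 of the 77 genes lower. In GMP over CMP they were 52.6%, 41.9%, 35.9% and 9.74%, and 63.1% after normexp. In MEP over CMP the share was 41.0% with the 75th percentile, 62.4% with the percentile of detected probes and 16.7% with spike-ins. In early erythroblasts over MEP it was 53.7% with the 75th percentile and 2.93% with spike-ins, and 56 and 77 of the 77 genes fell. In late over early erythroblasts it was 36.8%, 55.7% with the percentile of detected probes and 2.11% with spike-ins, and 61, 50 and 52 fell. In granulocytes over GMP it was 41.5%, 52.7% and 59.6%, and 74, 69 and 16 fell. Between the paths it was 54.6% with the 75th percentile and 0.556% with spike-ins.

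**Figure D5:**
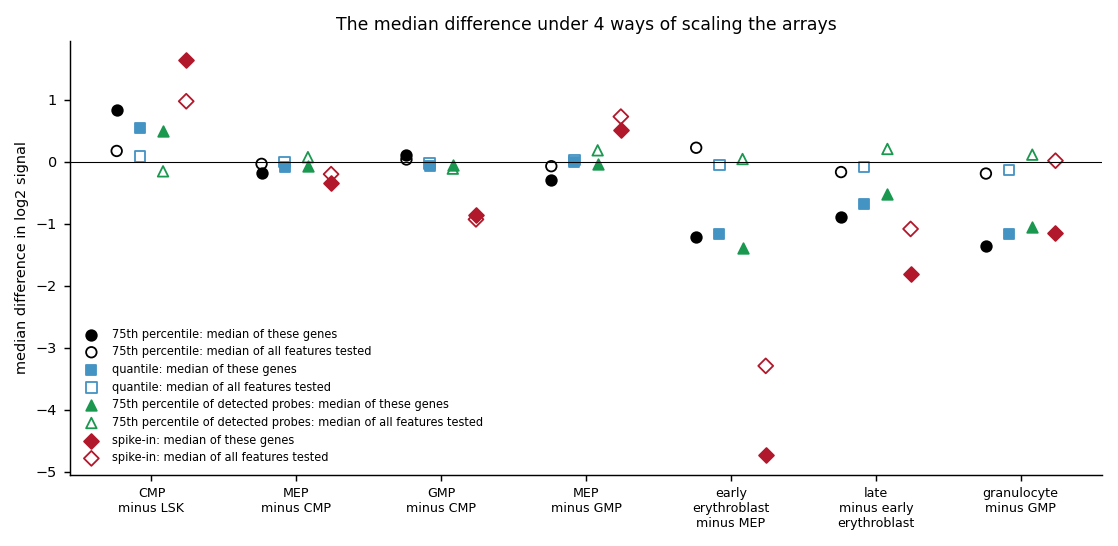
For each comparison, filled symbols give the median log2 difference of the 77 genes and open symbols the median of all features tested, under 4 ways of scaling the arrays. The filled symbol lies above the open one in CMP over LSK under each of the 4. It lies below in both erythroblast comparisons and in granulocytes over GMP. All but quantile normalization shift whole arrays by a constant, so this gap could differ only there. In GMP over CMP and MEP over GMP the sign of the filled symbol changes with the scaling.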

How the data were processed

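The authors sorted 7 populations and hybridised RNA of each sample to 1 custom Agilent array, per the labels. Agilent Feature Extraction 11.5.1.1 produced the authors' intensity values, per the file headers, with background subtracted and poor spots flagged. The RefSeq list of GRCm38.p6 gave gene names, promoters and neighbouring genes. The labels name a red dye, whereas the files hold 1 green channel; values were treated as single-colour. The authors' series table held the background-subtracted intensity and was an alternative only.

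The processed signal was put on the log2 scale from the deposited intensity, less each array's 75th percentile. Control and flagged spots were left out, spots of a probe averaged and the brightest probe per gene kept. A feature entered a test if at least 1 of the groups compared had it well above background throughout, and was called at an adjusted p under 0.05 where the higher group was so on every array; the comparison of paths needed all 4 groups. Fits used limma 3.58.1 in R 4.3.3, cell type means over all 19 arrays, eBayes and Benjamini-Hochberg adjustment over all features; limma's recovery of known changes was tested on simulated data.

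The members and gene lists were chosen with earlier results of these data known. Named genes were, per comparison, the 4 called members with the largest difference in each direction (3 between the paths), the 6 with the largest and 3 with the smallest range of cell type means among genes detected in every cell type, the 5 least like the median profile, Mrps18a, Mrps18b, Mrps18c, Mrpl12, Mrps36, Mrps30, the 5 mitoribosome genes without an Mrp symbol, and the 2 called members of each other list with the largest difference; other members are named where a count, a neighbour or a second probe called for it, after their values were seen. The stem, erythroid, granulocytic, macrophage, B cell and T and NK cell markers checked the labels. Mitochondrially encoded messages had 0 matches.

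Replicate numbers did not pair the arrays, with correlations of same-numbered deviations from -0.52 to 0.48. Arrays on 1 slide did deviate together, with a median correlation of 0.27 over 30 pairs, so slide was fitted as a block and compared within slides. Alternatives were quantile normalization, the percentile of detected probes, spike-in scaling, normexp with an offset of 50, the mean of all probes, no filter on dim probes, both blocks, the series table, only the groups compared, and leaving out each array. Normexp was planned on the mean signal, which the files used here lack, and was run on the median signal. The number of arrays limits the precision; 0 spots were saturated.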

Additional observations from a re-analysis of the deposited data

Results flagged for a closer look

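By limma's interaction term, the change along the red cell path differed from that along the granulocyte path for 49 of the 73 genes tested. The term is the late erythroblast minus MEP difference less the granulocyte minus GMP difference. Of all features 76.7% differed, so the count by itself does not set these genes apart. It was lower in the red cell path for 40 genes and higher for 9, against 34.9% and 41.9% of all features. With spike-in scaling it was lower for all 73. Genes named by rule in that test were singled out because the interaction passed at 0.05 after adjustment. The interaction was 1.78 for Mrps10, 1.60 for Mrps36 and 1.41 for Mrpl4, whose red cell changes were 0.32, 0.06 and 0.34 beside granulocyte changes of -1.46, -1.54 and -1.07. Under spike-in scaling those 3 interactions were negative. On its second probe Mrpl4 changed by -1.24 along the red cell path and -1.38 along the granulocyte path, 0.14 apart. The interaction was -2.24 for Mrps35, -2.08 for Mrpl52 and -2.05 for Mrps6, whose falls were larger in late erythroblasts than in granulocytes. Mrpl52 was already lower in GMP than in MEP, so its paths started at unlike levels. The interaction was also negative for Mrps18a (-0.99), Mrps18b (-1.24) and Mrpl12 (-1.05), though the second probe of Mrps18b gave 0.26. For Mrps18c the interaction was 0.38 and did not pass (adjusted p = 0.239 by limma), so its paths were not shown to differ.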

How the results depend on the processing

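Calls in CMP over LSK, early erythroblasts over MEP, late over early erythroblasts, the comparison of paths and the F test stayed within 1.5 times of their count under all alternatives, except that spike-in scaling gave 47 in CMP over LSK, and it gave 16 in granulocytes over GMP. Calls between progenitors were fewer and less steady. MEP over CMP gave 0 under quantile normalization, spike-in scaling and only the groups compared, and 2 after normexp. GMP over CMP gave 1 under spike-in scaling, and its median turned to -0.065 under quantile normalization, -0.046 with the percentile of detected probes and -0.86 with spike-ins. MEP over GMP gave 8 under quantile normalization, 11 with the percentile of detected probes, 1 under spike-in scaling, 15 without the filter and 11 with only the groups compared, and its median turned to 0.51 with spike-ins. Spike-in scaling turned Mrpl33, Mrpl44 and Mrpl51 in GMP over CMP (-0.26, -0.42, -0.54), Mrps36, Mrpl53, Mrps18c and Mrpl57 in early erythroblasts over MEP (-1.86, -2.09, -2.37, -2.45), Mrps6 and Mrpl32 in late over early erythroblasts (-0.10, -0.46), and Mrps10, Mrps36 and Mrpl4 between paths (-2.87, -3.05, -3.24). Spike-in scaling and the percentile of detected probes shift whole arrays by a constant. By construction that shift sets the medians and single differences given for them. The cause of their changed counts, and of the changes under other alternatives, was not tested. Leaving out 1 array gave 68 to 71 calls in CMP over LSK, 0 to 1 in MEP over CMP, 2 to 4 in GMP over CMP, 10 to 27 in MEP over GMP (10 without GMP replicate 1), 61 to 66 in early erythroblasts over MEP, 59 to 66 in late over early erythroblasts, 70 to 74 in granulocytes over GMP, 47 to 51 between paths and 77 to 77 in the F test. With the replicate number as a block the counts were 71, 1, 4, 20, 66, 63, 74, 51 and 77, and with slide as a block 69, 1, 4, 19, 66, 64, 70, 37 and 77. Of the values of single named genes under an alternative, 862 kept direction and side of the threshold, 59 lost the call and the 12 above reversed. Dim erythroblast arrays limit what can be said of low genes there.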
